A study of Mus musculus with 12 samples.

Results

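The genes described here are the collagen chain genes of the mouse, chosen by name alone as every gene symbol made of Col, a number, the letter a and a second number. They are 44 of the 55418 symbols in the count table. A collagen molecule is a rope of chains wound around each other, each gene encodes a single chain, and many collagens need the chains of several genes. Fibrillar collagens, of which type I is the main one in tendon, pack into the fibrils that carry load. Fibril-associated collagens sit on the surface of these fibrils, type VI forms beaded filaments close to the cell, basement membrane collagens form sheets or anchor them, short-chain collagens form open networks, and transmembrane collagens span the cell membrane.

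The samples are 12 single cells, 6 labelled Tnmd-/- ScxGFP+ and 6 labelled WT ScxGFP+, from untreated and uninjured Achilles tendons of mice on a C57BL/6 background. Tnmd-/- mice lack tenomodulin, a membrane glycoprotein of tendon cells, in every tissue, and because the gene is X-linked the wild-type mice of the study included heterozygous females. Both genotypes carry ScxGFP, a green reporter of the tendon transcription factor Scx, and cells were picked by that green light with a micromanipulator after 8 h in collagenase. The animal behind a cell and an age tied to these tendons are not given in the sources used here, though the operated mice of the study were skeletally mature, and the methods name 2 tendons per genotype. Each genotype therefore counts as 1 sample, no test between genotypes was made, and the cells are described by their values. The RNA of each cell was read by Smart-Seq2, which covers whole transcripts and does not mark single molecules.

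Total counts were 892713 to 10333351 in the Tnmd-/- cells and 4516036 to 13613080 in the WT cells. The deleted gene itself, Tnmd, had 5, 2 and 1 counts in Tnmd-/- cells 20, 9 and 1 and 0 in the other 3, but among the WT cells it had 10178 counts in cell 14, 7 in cell 2 and 0 in cells 1, 4, 5 and 10. The mitochondrial share was 51.8% in Tnmd-/- cell 3, against 1.75% to 7.30% in the other 11 cells. All 9 tendon fibroblast markers had counts over the 12 cells together, Dcn the most. Their summed level was 1408 to 87462 CPM (counts per 1000000 counts of the cell) in the Tnmd-/- cells and 31935 to 175900 CPM in the WT cells. Scx itself had 3 counts in Tnmd-/- cell 7 and 0 in the other Tnmd-/- cells. Among the WT cells it had 174, 1355, 1 and 544 counts in cells 1, 4, 5 and 10 and 0 in cells 2 and 14. The study marked 3 cells of each genotype as less degraded (Tnmd-/- cells 9, 10 and 20, WT cells 4, 5 and 10) and the other 6 as more degraded, and values are given for both levels below.

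Collagen chains together made up a similar share of the counts in both genotypes. Their pooled level, the counts summed over 6 cells as CPM of their summed total, was 2116 CPM in the Tnmd-/- cells (74239 counts) and 2122 CPM in the WT cells (113402 counts). The pooled log2 ratio, always given as Tnmd-/- over WT, was -0.004 with a 95% interval of -0.018 to 0.009. That interval, like every interval here, covers counting error only and not the spread between cells. The sign of this ratio depended on the weighting, since it was 0.51 with every cell weighing the same, -0.22 in the less degraded cells and 0.65 in the more degraded cells.

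The spread between cells was far larger than that difference. In the Tnmd-/- cells the collagen level was 2191 CPM in cell 1, 330.3 CPM in cell 3, 8199 CPM in cell 7, 2931 CPM in cell 9, 2042 CPM in cell 10 and 513.7 CPM in cell 20. In the WT cells it was 3105 CPM in cell 1, 13.1 CPM in cell 2, 3597 CPM in cell 4, 1081 CPM in cell 5, 2268 CPM in cell 10 and 1329 CPM in cell 14. Tnmd-/- cell 7, the shallowest of the 12, stood highest, and WT cell 2, with 63 collagen counts among 4825610, stood lowest. The same WT cell 2 had 32372 CPM of decorin (Dcn), the small proteoglycan that coats collagen fibrils, a level within the range of 22270 to 133600 CPM of the WT cells. The proportion of counts in collagen chains was 0.820% (exact binomial interval 0.801% to 0.839%) in Tnmd-/- cell 7 and 0.00131% (0.001003% to 0.00167%) in WT cell 2.

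**Figure D1:**
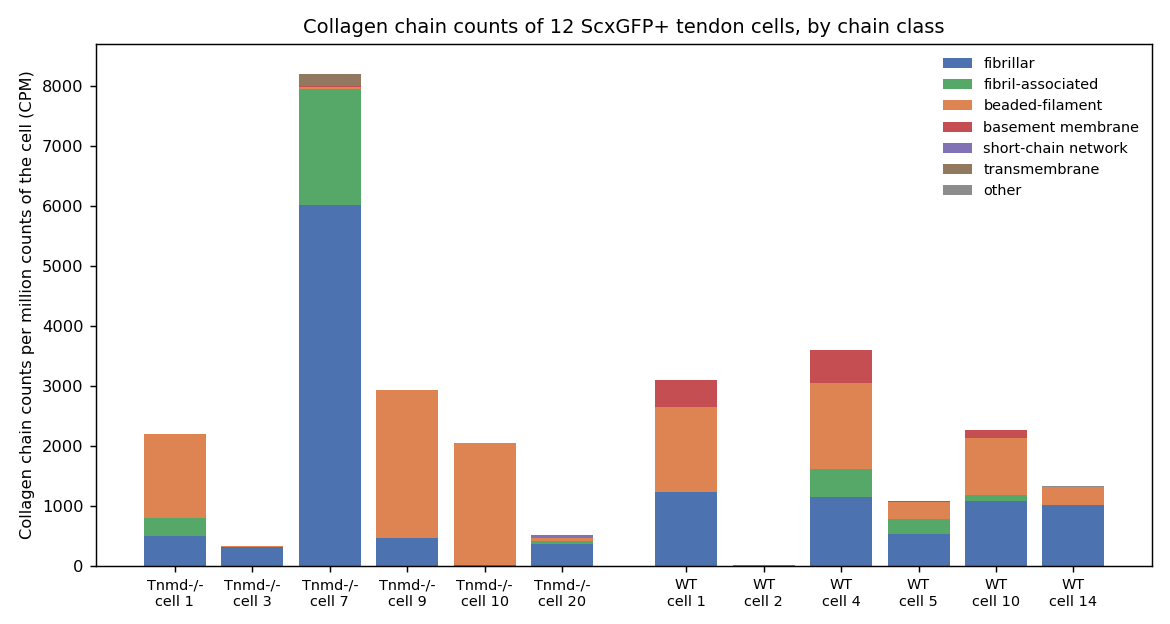
Level of collagen chains (CPM) of each of the 12 cells, stacked by class of chain, with the 6 Tnmd-/- cells on the left and the 6 WT cells on the right. The bar of Tnmd-/- cell 7 reaches 8199 CPM and is mostly fibrillar, that of WT cell 2 (13.1 CPM) is barely visible, and a basement membrane segment of over 100 CPM appears only in WT cells 1, 4 and 10.

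The make-up of the collagen counts differed between the pooled genotypes, but for the fibrillar and beaded-filament chains this rested on the deeper cells. Beaded-filament chains were 73.0% (72.7% to 73.3%) of the collagen counts of the Tnmd-/- cells and 38.9% (38.7% to 39.2%) of those of the WT cells. Fibrillar chains were 21.1% (20.8% to 21.4%) and 41.7% (41.4% to 42.0%), and fibril-associated chains 5.08% (4.93% to 5.24%) and 9.05% (8.88% to 9.22%). Basement membrane chains were 0.0458% (0.0317% to 0.0640%) in the Tnmd-/- cells and 10.2% (10.1% to 10.4%) in the WT cells. Parts were also taken from the mean CPM over the 6 cells, a choice made after the data were seen. The beaded-filament part was then 36.9% against 38.5% and the fibrillar part 47.2% against 43.9%. The fibril-associated part was 14.2% against 7.24% and the basement membrane part 0.101% against 10.2%. Cells with more collagen weigh more in these parts, above all Tnmd-/- cell 7 at 8199 CPM. The median part within single cells was 46.6% against 43.6% for fibrillar chains and 4.89% against 8.79% for fibril-associated chains. For basement membrane chains it was 0.0294% against 10.2%. Within single cells the beaded-filament part ran from 0.328% to 99.7% in the Tnmd-/- cells (median 36.5%) and from 21.7% to 45.8% in the WT cells (median 35.6%). The chain with the most counts also varied from cell to cell within a genotype. It was Col6a3 in Tnmd-/- cells 1, 9 and 10 and in WT cells 1, 2 and 4, Col1a2 in Tnmd-/- cells 3, 7 and 20 and in WT cell 14, Col5a3 in WT cell 5 and Col5a2 in WT cell 10. Its part of the collagen counts ran from 18.9% (18.6% to 19.3%) in WT cell 4 to 87.7% (84.5% to 90.5%) in Tnmd-/- cell 3.

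Of the 44 chains, 21 were seen, meaning at least 10 counts, in at least 1 cell, 29 had at least 1 count, and 15 had none. A Tnmd-/- cell held 3 to 8 seen chains (6, 3, 8, 7, 5 and 6 in cells 1, 3, 7, 9, 10 and 20) and a WT cell 4 to 11 (9, 4, 11, 11, 9 and 6, for cells 1, 2, 4, 5, 10 and 14). The medians were 6 and 9, and the ranges overlapped. After every cell was thinned to the depth of the shallowest one, 892713 counts, the medians were 4.5 and 8 and the ranges 2 to 8 and 0 to 11. With 1 count sufficing they were 9.5 and 10.

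Most chains were seen in few cells. Col1a2 alone was seen in all 12 cells, Col6a3 in 11, and 9 of the 21 (42.9%) in a single cell, the median being 3 cells. Over all 10123 genes seen in any cell the median was 2 cells, 42.0% were seen in a single cell and 213 in all 12. Detection in a single cell was thus about as frequent among collagen chains as among all genes, while their median exon length was 7.62 kb against 4.14 kb.

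**Figure D2:**
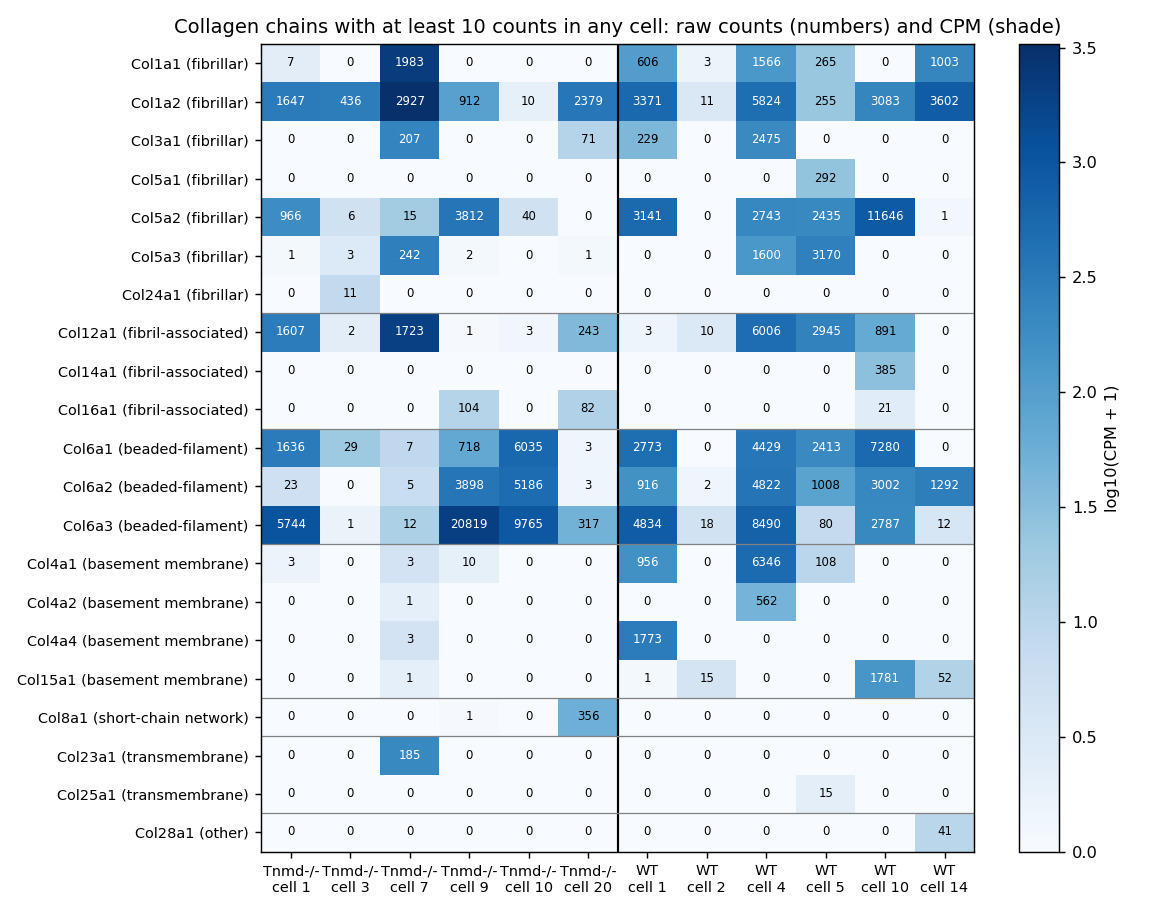
Raw counts (numbers) and level (shade, log10 of CPM + 1) of the 21 collagen chains with at least 10 counts in any of the 12 cells, grouped by class, with the Tnmd-/- cells to the left of the vertical line. Col1a2 has 10 or more counts in every column, the rows of Col4a1, Col4a4 and Col15a1 reach 6346, 1773 and 1781 counts in single WT cells against at most 10 in any Tnmd-/- cell, and 9 chains have 10 or more counts in a single column.

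Fibrillar chains had a pooled level of 447 CPM for Tnmd-/- and 885.7 CPM for WT, giving a log2 ratio of -0.99 (-1.01 to -0.96). The ratio was -1.81 in the less degraded cells but 0.49 in the more degraded cells, and 0.61 with equal weight for each cell. Tnmd-/- cell 7 weighed heavily in the positive values. It was at 6020 CPM, against 493.6 CPM in cell 1, the next Tnmd-/- cell, and held 5374 of the 8460 counts of the more degraded Tnmd-/- cells. With each cell left out the ratio stayed negative, from -1.55 without Tnmd-/- cell 7 to -0.49 without Tnmd-/- cell 10. The 6 Tnmd-/- cells ranged from 4.85 to 6020 CPM and the 6 WT cells from 2.90 to 1226 CPM, so the ranges overlapped. Of the 11 fibrillar chains 7 were seen.

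Col1a2 (GRCm38 chromosome 6, 4504814 to 4541544) encodes the second chain type of type I collagen, the principal collagen of tendon. Its level in the Tnmd-/- cells was 310.1 CPM in cell 1, 289.7 in cell 3, 3279 in cell 7, 88.3 in cell 9, 0.970 in cell 10 and 352.8 in cell 20. Among the WT cells it was 562.6 CPM in cell 1, 2.28 in cell 2, 466.9 in cell 4, 21.2 in cell 5, 226.5 in cell 10 and 797.6 in cell 14. Each genotype thus held 1 cell with around 10 counts (10 in Tnmd-/- cell 10, 11 in WT cell 2) beside cells with up to 5824, and the ranges overlapped throughout. The pooled log2 ratio was -0.35 (-0.39 to -0.31), with -0.996 in the less and 0.51 in the more degraded cells. It was 1.06 with equal weights, -0.94 without Tnmd-/- cell 7 and 0.15 without Tnmd-/- cell 10.

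Col1a1 (chromosome 11, 94936224 to 94953042), the chain that makes up the larger part of type I collagen, was seen in far fewer cells than Col1a2. It had 1983 counts in Tnmd-/- cell 7, 7 in cell 1 and 0 in the other 4 Tnmd-/- cells. In the WT cells it had 1566 counts in cell 4, 1003 in cell 14, 606 in cell 1, 265 in cell 5, 3 in cell 2 and 0 in cell 10. It was seen in 1 Tnmd-/- and 4 WT cells. The pooled ratio of -0.18 (-0.26 to -0.10) came from Tnmd-/- cell 7, and without that cell it was -8.30, while equal weights gave 2.24.

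Col3a1 (chromosome 1, 45311538 to 45349706) encodes type III collagen, which is mixed into thin fibrils and healing tissue. It had 207 counts in Tnmd-/- cell 7, 71 in Tnmd-/- cell 20, 229 in WT cell 1, 2475 in WT cell 4 and 0 in the other 8 cells. The pooled ratio was -2.68 (-2.86 to -2.50), but 0.50 without WT cell 4 and 0.85 in the more degraded cells, so that its sign rested on 1 cell. Its promoter was one of 5 among the 38 promoter entries of collagen chains that hold the letters TATAAA on either strand. The 250 bases before its start in RefSeq (GRCm38.p6, chr1:45311288-45311537, + strand) are shown with that match in capitals.

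Col3a1: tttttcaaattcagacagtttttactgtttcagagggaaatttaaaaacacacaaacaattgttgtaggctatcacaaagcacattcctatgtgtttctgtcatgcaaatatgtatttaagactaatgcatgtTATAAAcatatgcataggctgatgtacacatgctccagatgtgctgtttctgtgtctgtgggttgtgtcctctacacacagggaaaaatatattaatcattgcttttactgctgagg

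The type V chains, which set the width of type I fibrils, showed 3 different patterns. Col5a2 (chromosome 1, 45374321 to 45503282) was at 181.9 CPM in Tnmd-/- cell 1, 3.99 in cell 3, 16.8 in cell 7, 368.9 in cell 9, 3.88 in cell 10 and 0 in cell 20. Among the WT cells it was at 524.3 CPM in cell 1, 0 in cell 2, 219.9 in cell 4, 202.6 in cell 5, 855.5 in cell 10 and 0.221 in cell 14. In each genotype it was therefore seen in 4 cells, and the 2 highest cells, 10 and 1, were WT cells. The pooled ratio was -1.44 (-1.48 to -1.39), -1.65 and -0.68 in the less and more degraded cells, -3.17 without Tnmd-/- cell 9 and -0.60 without WT cell 10.

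Col5a3 (chromosome 9, 20770050 to 20815067) had 242 counts in Tnmd-/- cell 7, 1600 in WT cell 4, 3170 in WT cell 5 and at most 3 in the other 9 cells. Its pooled ratio of -3.65 (-3.84 to -3.47) turned to at least 7.35 in the more degraded cells, where only Tnmd-/- cells had counts, and it was -8.77 without Tnmd-/- cell 7. Col5a1 (chromosome 2, 27886425 to 28039514), the partner of Col5a2 in the usual form of type V collagen, was seen in 1 cell, with 292 counts in WT cell 5 and 0 in the other 11. Its pooled level was at least 63.9-fold lower in the Tnmd-/- cells, a bound set against 3 counts in their sum, as are all such bounds here.

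The remaining fibrillar chains were barely counted. Col24a1 had 11 counts and Col11a1 9, all in Tnmd-/- cell 3, and Col27a1 had 8, all in WT cell 5. Col2a1, the collagen of cartilage fibrils, and Col11a2 had 0 counts in all 12 cells. Summed cartilage markers reached 216 to 15695 CPM per Tnmd-/- cell and 3196 to 21719 CPM per WT cell, with counts for 5 of 8 markers and none for Matn3, Cnmd and Snorc. Most of that sum was Chad in every cell, at 209 to 14424 CPM per Tnmd-/- cell and 2960 to 21704 CPM per WT cell. Acan, Sox9, Hapln1 and Matn1 reached at most 1042, 482, 187 and 0.665 CPM in any cell.

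Fibril-associated chains had a pooled level of 107.6 CPM for Tnmd-/- and 192 CPM for WT, a ratio of -0.84 (-0.89 to -0.78) that again changed sign, to 8.99, in the more degraded cells and to 1.48 with equal weights. Nearly all of it was Col12a1 (chromosome 9, 79598991 to 79718831), a large chain that links neighbouring fibrils. Col12a1 was at 302.6 CPM in Tnmd-/- cell 1, 1.33 in cell 3, 1930 in cell 7, 0.0968 in cell 9, 0.291 in cell 10 and 36.0 in cell 20. In the WT cells it was at 0.501 CPM in cell 1, 2.07 in cell 2, 481.5 in cell 4, 245 in cell 5, 65.5 in cell 10 and 0 in cell 14. High and near-zero cells thus occurred in both genotypes. The 2 highest Tnmd-/- cells were more degraded ones and the 3 highest WT cells less degraded ones, and the pooled ratio of -0.85 (-0.91 to -0.80) was -4.84 and 8.99 within the less and more degraded cells, 1.51 with equal weights, -1.76 without Tnmd-/- cell 7 and 0.12 without WT cell 4.

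Col14a1 (chromosome 15, 55307750 to 55520803), a fibril-surface collagen of soft connective tissue, was seen in WT cell 10 alone, with 385 counts, and was at least 84.3-fold lower in the pooled Tnmd-/- cells. Col16a1 (chromosome 4, 130047840 to 130099283) had 104 counts in Tnmd-/- cell 9, 82 in Tnmd-/- cell 20 and 21 in WT cell 10, all less degraded cells, with a pooled ratio of 3.75 (3.10 to 4.48), 3.08 without Tnmd-/- cell 9 and at least 6.14 without WT cell 10. Col22a1, a collagen of the muscle-tendon junction, had 7 counts in Tnmd-/- cell 9, Col19a1 and Col20a1 had 1 count each, and Col9a1, Col9a2 and Col9a3, the chains of cartilage type IX collagen, had 0.

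Beaded-filament chains had a higher pooled level in the Tnmd-/- cells, 1545 against 826.3 CPM, a ratio of 0.90 (0.88 to 0.92), in contrast to the fibrillar, fibril-associated and basement membrane chains. The sign held in the less degraded (0.92) and the more degraded cells (0.59), with equal weights (0.45), and without any 1 cell (0.49 to 1.26). The cells nevertheless overlapped widely. Tnmd-/- cells 9 and 10, with 2461 and 2037 CPM, were the only ones above the highest WT cell (1423 CPM), while Tnmd-/- cells 3, 7 and 20 were at 19.9, 26.9 and 47.9 CPM and WT cell 2 was lowest of all at 4.14 CPM.

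Col6a3 (chromosome 1, 90765923 to 90843971), the longest of the type VI chains, carried this difference. In the Tnmd-/- cells it was at 1082 CPM in cell 1, 0.665 in cell 3, 13.4 in cell 7, 2015 in cell 9, 947.6 in cell 10 and 47.0 in cell 20. Among the WT cells it was at 806.8 CPM in cell 1, 3.73 in cell 2, 680.6 in cell 4, 6.66 in cell 5, 204.7 in cell 10 and 2.66 in cell 14. Among the 12 cells, the 3 highest were Tnmd-/- cells 9, 1 and 10, and the lowest was also a Tnmd-/- cell. The pooled ratio was 1.78 (1.76 to 1.81), a 3.44-fold higher level, with 1.92 and 1.24 in the less and more degraded cells, 1.08 without Tnmd-/- cell 9 and 2.47 without WT cell 4. The 250 bases before its RefSeq start (GRCm38.p6, chr1:90843972-90844221, - strand) are printed because Col6a3 had the most counts of all chains, and they hold neither CCAAT nor TATAAA on either strand.

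Col6a3: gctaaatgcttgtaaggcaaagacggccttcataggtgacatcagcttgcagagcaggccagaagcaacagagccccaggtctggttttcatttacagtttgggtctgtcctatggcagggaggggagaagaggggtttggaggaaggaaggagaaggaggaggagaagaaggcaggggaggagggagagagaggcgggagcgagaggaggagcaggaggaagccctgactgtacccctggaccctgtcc

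The other type VI chains did not follow Col6a3. Col6a1 (chromosome 10, 76708792 to 76726168) was at 308.1 CPM in Tnmd-/- cell 1, 19.3 in cell 3, 7.84 in cell 7, 69.5 in cell 9, 585.7 in cell 10 and 0.445 in cell 20. In the WT cells it was at 462.8 CPM in cell 1, 355.1 in cell 4, 200.8 in cell 5, 534.8 in cell 10 and 0 in cells 2 and 14. Its pooled ratio was -0.40 (-0.43 to -0.36), and 0.26 in the more degraded cells, with a single Tnmd-/- cell, cell 10, holding 6035 of 8428 counts. Without that cell the ratio was -1.71.

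Col6a2 (chromosome 10, 76595762 to 76623630) was at 4.33 CPM in Tnmd-/- cell 1, 0 in cell 3, 5.60 in cell 7, 377.2 in cell 9, 503.3 in cell 10 and 0.445 in cell 20. Among the WT cells it was at 152.9 CPM in cell 1, 0.414 in cell 2, 386.6 in cell 4, 83.9 in cell 5, 220.5 in cell 10 and 286.1 in cell 14. So 5 of 6 WT cells were at 83.9 CPM or more, whereas 2 Tnmd-/- cells were at 377.2 CPM or more and the other 4 at 5.60 CPM or less. The pooled ratio was 0.33 (0.29 to 0.37), but -0.34 with equal weights, -0.38 without Tnmd-/- cell 10 and -5.31 in the more degraded cells. Col6a4, Col6a5 and Col6a6 had 0 counts in every cell.

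Per kilobase of exon, which makes chains comparable with each other, Col6a3 led in the pooled Tnmd-/- cells and Col6a1 in the pooled WT cells. The pooled levels were 87.3 and 25.4 CPM per kilobase for Col6a3, 54.8 and 72.2 for Col6a1 and 31.2 and 24.8 for Col6a2, in the Tnmd-/- and WT cells respectively. On the same scale Col5a2 was at 14.4 and 39.0, Col1a2 at 19.1 and 24.3, Col12a1 at 6.70 and 12.1 and Col1a1 at 8.64 and 9.82. This order also rested on the pooling. With equal weight for each cell the Tnmd-/- levels were 58.0 for Col1a2, 57.2 for Col6a3, 56.4 for Col1a1, 37.7 for Col6a1 and 17.8 for Col6a2. The WT levels were 27.9 for Col1a2, 23.8 for Col6a3, 59.1 for Col6a1 and 22.6 for Col6a2. Per kilobase, Col1a2 was above every type VI chain in Tnmd-/- cells 3, 7 and 20 and in WT cell 14. With the longest coding transcript as length the pooled level of Col1a2 moved up to 44.3 and 56.5, since the exons of its gene sum to 12.4 kb, and it was then above Col6a2 (44.4) and Col6a3 (30.0) in the WT cells but still below Col6a1 (77.1).

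Basement membrane chains were far lower in the pooled Tnmd-/- cells. They had 34 counts in the Tnmd-/- cells (0.969 CPM) and 11598 in the WT cells (217 CPM), which gives a ratio of -7.81 (-8.34 to -7.32). The ratio was -8.38 in the less and -6.55 in the more degraded cells, -6.16 with equal weights, and between -8.40 and -6.88 without any 1 cell. In the Tnmd-/- cells the summed level was 0.565 CPM in cell 1, 0 in cells 3 and 10, 13.4 in cell 7, 0.968 in cell 9 and 1.33 in cell 20. In the WT cells it was 455.7 CPM in cell 1, 3.94 in cell 2, 553.8 in cell 4, 8.99 in cell 5, 130.8 in cell 10 and 11.5 in cell 14. Both ranges overlapped through Tnmd-/- cell 7, whose 13.4 CPM rest on 12 counts and exceed WT cells 2, 5 and 14, whereas the other 5 Tnmd-/- cells were below all 6 WT cells.

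A different chain accounted for this class in each of the 3 high WT cells. Col4a1 (chromosome 8, 11198423 to 11312826), a chain of the type IV collagen found in nearly all basement membranes, was at 508.7 CPM in WT cell 4, 159.6 in WT cell 1 and 8.99 in WT cell 5, and at 0 in WT cells 2, 10 and 14. Among the Tnmd-/- cells it was at 0.565 CPM in cell 1, 3.36 in cell 7 and 0.968 in cell 9, each from 10 counts or fewer, and at 0 in cells 3, 10 and 20. Its pooled ratio was -8.25 (-9.06 to -7.55), and -5.83 without WT cell 4, which held 6346 of 7410 WT counts. Col4a2 (chromosome 8, 11312805 to 11449287), the chain that joins Col4a1 in that collagen, had 562 counts in WT cell 4, 1 in Tnmd-/- cell 7 and 0 elsewhere, a ratio of -8.53 (-13.8 to -6.04).

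Col4a4 (chromosome 1, 82448423 to 82586849), a chain of the type IV collagen known from the kidney filter, had 1773 counts in WT cell 1, 3 in Tnmd-/- cell 7 and 0 elsewhere, a ratio of -8.60 (-10.9 to -7.05). Col15a1 (chromosome 4, 47208161 to 47313167), a collagen that tethers basement membranes to the tissue around them, had 1781 counts in WT cell 10, 52 in WT cell 14, 15 in WT cell 2, and 1 each in WT cell 1 and Tnmd-/- cell 7. Its ratio was -10.25 (-15.6 to -7.77) and -5.90 without WT cell 10. Thus Col4a1 with Col4a2, Col4a4 with Col4a1, and Col15a1 filled the class in WT cells 4, 1 and 10 in turn. Col4a3 had 9 counts in Tnmd-/- cell 20, Col7a1, the anchoring fibril collagen, had 4 each in Tnmd-/- cell 7 and WT cell 2, and Col4a5, Col4a6 and Col18a1 had 0 throughout.

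Type IV genes lie in head-to-head pairs on the chromosome, but the members of a pair were not seen together as a rule. Col4a3 and Col4a4 start 72 bp apart and were seen in 0 and 1 cells, Col4a1 and Col4a2 start 21 bp apart and were seen in 4 and 1 cells (both in 1), and Col4a5 and Col4a6, 1309 bp apart, were never seen. The whole stretch of 71 bases between the outermost exon of Col4a4 and that of Col4a3 (GRCm38 chr1:82586850-82586920) is printed here on the - strand, the strand of Col4a4, because 1773 counts lay on one side of it and 0 on the other in WT cell 1. It holds neither CCAAT nor TATAAA, and 69.0% of its bases are G or C. The 250 bases before the RefSeq start of Col15a1, which lies upstream of the GENCODE start given above (GRCm38.p6 chr4:47207762-47208011, + strand), the chain with the lowest pooled ratio, hold neither motif and are 53.6% G or C, against 35.2% before Col3a1 and 57.2% before Col6a3.

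between Col4a4 and Col4a3: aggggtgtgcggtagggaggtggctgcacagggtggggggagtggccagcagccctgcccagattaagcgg
Col15a1: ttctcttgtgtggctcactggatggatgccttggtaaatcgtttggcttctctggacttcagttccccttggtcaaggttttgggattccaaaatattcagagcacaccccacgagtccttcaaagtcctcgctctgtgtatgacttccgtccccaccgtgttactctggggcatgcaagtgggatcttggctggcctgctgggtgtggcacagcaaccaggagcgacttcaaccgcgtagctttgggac

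RefSeq held promoter entries for 35 of the 44 chains, 38 entries in all. Over the 250 bases before the start, CCAAT or its reverse ATTGG was in 13 of them (34.2%), against 33.9% of all 32851 promoters, and TATAAA or its reverse TTTATA in 5 (13.2%), against 12.4%. Col1a1, Col2a1, Col4a3, Col5a2, Col9a3, Col12a1, Col14a1, Col22a1 and Col26a1 had no entry.

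Endothelial and mural cells of vessels lie on basement membranes, and their markers were summed in each cell. In WT cells 1, 4 and 10 the summed endothelial markers (8 genes, 4 of them with any counts in the 12 cells, Cdh5, Emcn, Tie1 and Egfl7 at 0) were at 0.167, 0 and 0.220 CPM, and over all cells at 0 to 30.9 CPM for Tnmd-/- and 0 to 0.220 CPM for WT. The summed mural cell markers (7 genes, 2 with counts, Rgs5, Kcnj8, Abcc9, Myh11 and Mcam at 0) were at 0, 44.3 and 0.0735 CPM in WT cells 1, 4 and 10, within ranges of 0 to 191 and 0 to 668 CPM. S100b, a gene of glia and cartilage cells named after its values were seen, was at 173 CPM in WT cell 10, 36.4 CPM in Tnmd-/- cell 10 and at most 2.24 CPM elsewhere. Summed immune markers (1 of 8 with counts, Ptprc at 0) reached at most 0.871 CPM, muscle markers (2 of 5, Ckm at 0) 6.72 CPM and adipocyte markers (1 of 4, Adipoq at 0) 0.622 CPM in any cell, and the 4 haemoglobin genes were at 0. The part of such cells in the basement membrane counts was not tested.

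In the short-chain, transmembrane and remaining classes nearly all counts of each chain came from a single cell. Col8a1 (chromosome 16, 57624258 to 57754737), a network-forming collagen of vessel walls and corneal membranes, had 356 counts (52.8 CPM) in Tnmd-/- cell 20, 1 in Tnmd-/- cell 9 and 0 in the other 10 cells, and its pooled level was at least 181-fold higher in the Tnmd-/- cells. Col23a1 (chromosome 11, 51289920 to 51583918), a transmembrane collagen, had 185 counts (207.2 CPM) in Tnmd-/- cell 7 and 0 in the other 11 cells, at least 93.9-fold higher. Col28a1 (chromosome 6, 7997808 to 8192617), a collagen with von Willebrand factor A domains, had 41 counts (9.08 CPM) in WT cell 14 and 0 in the other 11 cells, at least 8.97-fold lower in the Tnmd-/- cells. Transmembrane Col25a1 had 15 counts in WT cell 5, and Col13a1 had 1 in Tnmd-/- cell 10. Col8a2, Col10a1, Col17a1 and Col26a1 had 0 counts in all cells.

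The transmembrane sum, 186 against 15 counts, had a ratio of 4.24 (3.48 to 5.11) that turned to -3.26 without Tnmd-/- cell 7 and to -3.43 in the less degraded cells, where the 15 counts of Col25a1 in WT cell 5 face 1 count.

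Chains that assemble into the same molecule were often seen without their partner in a cell. Col1a2 was seen in all 5 cells with Col1a1 and alone in 7, of which 5 were Tnmd-/- and 2 WT cells. Where both were seen, Col1a1 over Col1a2 per kilobase of exon was 1.28 in Tnmd-/- cell 7, 0.340 in WT cell 1, 0.509 in WT cell 4, 1.97 in WT cell 5 and 0.527 in WT cell 14. The median of 0.527 became 0.251 with the longest coding transcript as length. The ratio thus spread over a range of 0.340 to 1.97 among the 4 WT cells, and the 1 Tnmd-/- value lay within it.

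For type VI collagen, Col6a1 and Col6a2 were each seen in 8 cells and together in 7. Col6a1 over Col6a2 per kilobase was 135 in Tnmd-/- cell 1, 0.350 in Tnmd-/- cell 9 and 2.21 in Tnmd-/- cell 10, against 5.75, 1.75, 4.55 and 4.61 in WT cells 1, 4, 5 and 10. Of the 3 Tnmd-/- values, that of cell 10 lay within the range of the 4 WT values and that of cell 9 below it. That of cell 1, resting on 23 counts of Col6a2, lay above it. Cells with 1 of the 2 chains under 10 counts gave no ratio. Among these were WT cell 14, with 0 counts of Col6a1 and 1292 of Col6a2, and Tnmd-/- cell 3, with 29 and 0. Col6a3 over Col6a1 was 1.29, 10.6 and 0.592 in Tnmd-/- cells 1, 9 and 10 and 0.638, 0.702, 0.0121 and 0.140 in WT cells 1, 4, 5 and 10. The medians over the 7 cells were 4.55 and 0.638, or 2.72 and 0.707 with coding transcript lengths. Col6a3 was seen without Col6a1 in 4 cells, Tnmd-/- cells 7 and 20 and WT cells 2 and 14, and Col6a1 without Col6a3 in Tnmd-/- cell 3.

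The other partner chains met in 1 cell at most. Col5a2 was seen in 8 cells and Col5a1 with it in WT cell 5 alone, at 0.135 of its level per kilobase, while Col5a3 stood there at 13.5 times Col5a1. Col4a1 was seen in 4 cells and Col4a2 with it in WT cell 4, where Col4a1 was 10.0 times higher per kilobase. Genes that lie near each other on the chromosome without sharing a start were seen together at different rates. Col6a1 and Col6a2, on the same strand with starts 103 kb apart, were together in 7 cells, and Col3a1 and Col5a2, tail to tail with starts 192 kb apart, were seen in 4 and 8 cells and together in 3.

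**Figure D3:**
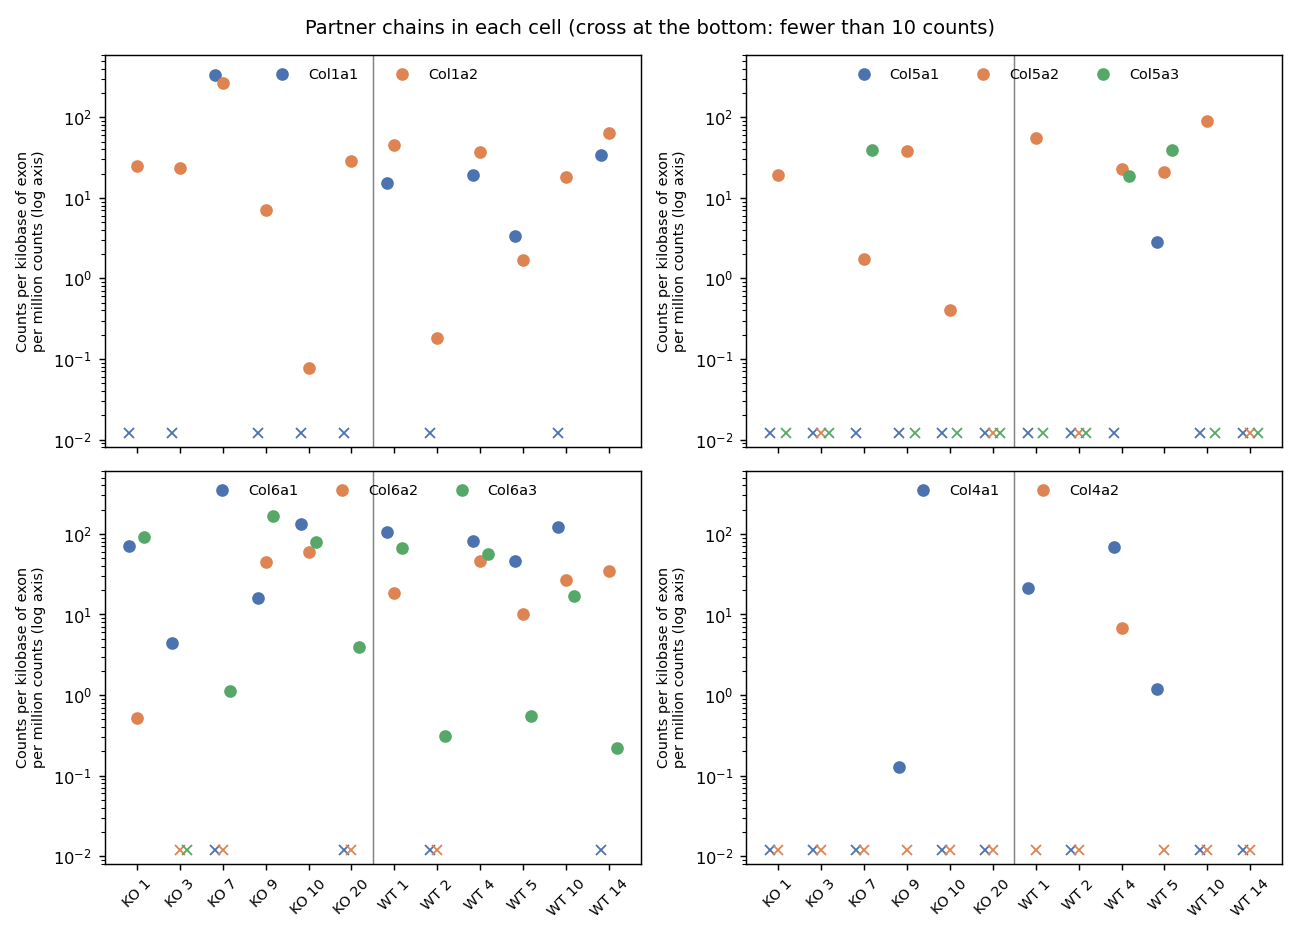
Level of partner chains in each of the 12 cells (KO is Tnmd-/-) as CPM of the cell per kilobase of exon on a log axis, for type I, V, VI and IV collagen, with a cross at the bottom for a chain under 10 counts. Col1a2 is drawn in all 12 cells and Col1a1 in 5. Col6a1 and Col6a2 are 1.75-fold to 5.75-fold apart in WT cells 1, 4, 5 and 10. They are 135-fold apart in Tnmd-/- cell 1, on 23 counts of Col6a2. Col6a2 is drawn without Col6a1 in WT cell 14, and Col6a1 without Col6a2 in Tnmd-/- cell 3. Col4a2 joins Col4a1 in WT cell 4 only.

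Across the genotypes, 19 of the 44 chains had at least 20 counts over all cells, the minimum set for a comparison, and of these 13 passed a 2-fold difference of pooled levels after adding 1 CPM to both. Col6a3, Col16a1, Col23a1 and Col8a1, 4 chains (21.1%), were higher in the Tnmd-/- cells, against 35.5% of the 9768 genes with that minimum. Lower were 9 chains (47.4%), namely Col3a1, Col5a1, Col5a2, Col5a3, Col14a1, Col4a1, Col4a2, Col4a4 and Col15a1, against 34.9% of all genes. The median log2 ratio with 1 CPM added was -0.85 over the 19 chains and 0.06 over all genes. Without the added CPM, and with the 5 chains whose sum was 0 in a genotype at their bound, it was -1.44, against 0.08 over all genes.

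The chains past 2-fold were not the same in the 2 levels of degradation. In the less degraded cells 3 chains were higher (28.3% of all genes) and 10 lower (31.2% of all genes), including Col1a1 and Col12a1. In the more degraded cells 5 were higher (29.6% of all genes) and 5 lower (25.6% of all genes), and Col1a1, Col12a1 and Col5a3 were among the higher. Past 2-fold in the same direction at both levels were Col6a3, higher, and Col4a1 and Col15a1, lower. Of the 19 chains none had all 6 cells of a genotype above or below all 6 of the other, a separation that 2 genes (0.0205%) showed in each direction among the 9768. With 1 sample per genotype these counts are a description of 12 cells.

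**Figure D4:**
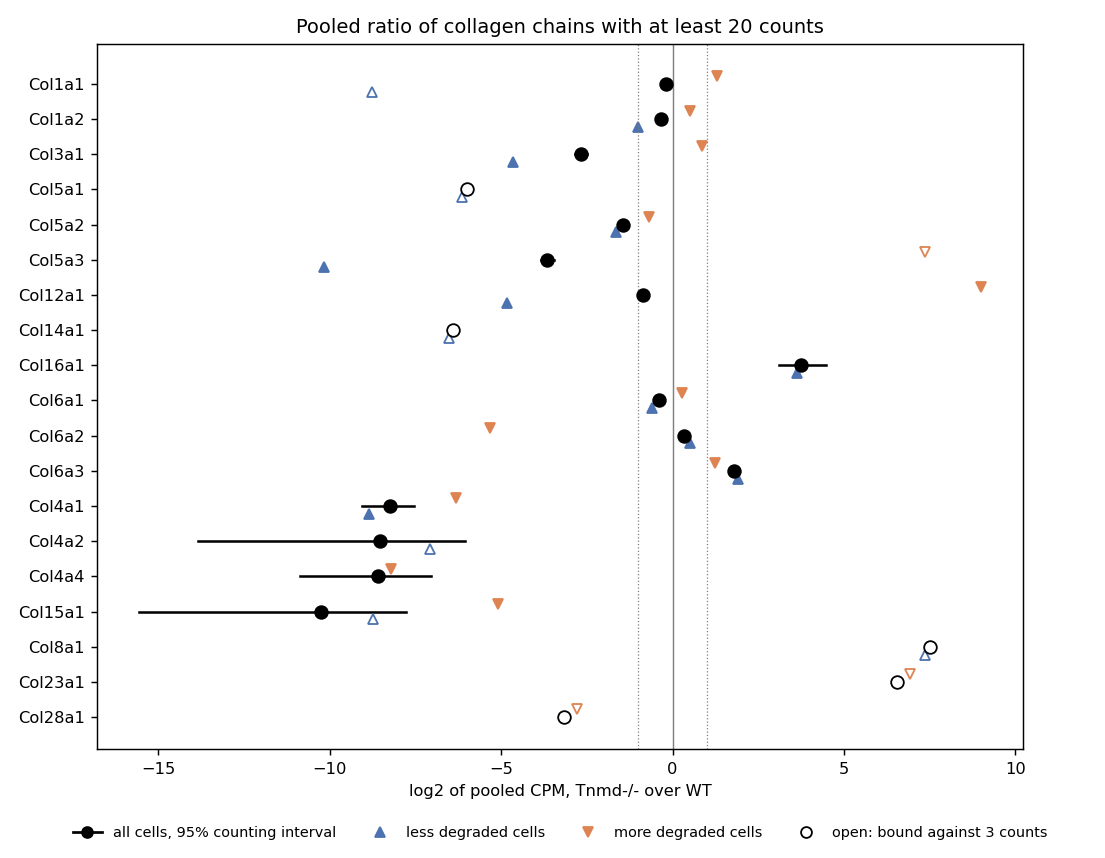
Pooled log2 ratio (Tnmd-/- over WT, CPM of summed counts) of the 19 collagen chains with at least 20 counts, with the 95% interval for counting error (black bars), and the same ratio in the 3 + 3 less degraded (blue, upward triangles) and 3 + 3 more degraded cells (orange, downward triangles); open symbols are bounds against 3 counts and dotted lines mark 2-fold. Col6a3 lies at 1.78, 1.92 and 1.24, Col4a1 at -8.25, -8.86 and -6.32, whereas Col12a1 (-4.84 and 8.99) and Col1a1 lie on opposite sides of 0 in the 2 levels.

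Genes that make, secrete, assemble, bind or break down collagen were also compared. Of 69 such genes, 48 had at least 20 counts, and 10 were higher and 20 lower past 2-fold in the Tnmd-/- cells, with a median log2 ratio of -0.47. These are 20.8% and 41.7% of the 48, against 35.5% and 34.9% of all genes, whose median ratio was 0.06. By role, 3 of 12 intracellular enzymes were higher and 3 lower, as were 3 and 3 of 8 chaperones. Of 11 fibril assembly genes 1 was higher and 5 lower, of 5 collagen receptors 1 and 3, of 3 cross-linking genes 1 and 2, of 4 processing genes 1 and 1, and of 5 turnover genes 0 and 3. Taking only genes that reach 50 CPM in 1 genotype or the other, the lowest ratios belonged to Itga2, a subunit of a collagen-binding integrin, with 2 and 2790 counts (-9.84, interval -12.9 to -7.98, seen in WT cell 14 alone), to Rcn3, a chaperone of the secretory pathway (-9.45, with 16.9% of its exon bases also in Gm45669), and to Lum, the fibril-coating proteoglycan lumican, with 40 and 21388 counts (-8.46, -8.94 to -8.01), which was at least 3.73 in the more degraded cells, where the WT sum was 0.

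The highest ratios in that list belonged to Fkbp10, a collagen chaperone and prolyl isomerase, with 3059 and 4 counts (10.19, 8.83 to 12.1, seen in 2 Tnmd-/- cells), and to Ddr1, a collagen receptor kinase, with 3663 and 46 counts (6.92, 6.503 to 7.375, and -3.41 without Tnmd-/- cell 9). Crtap, part of the complex that modifies collagen prolines, followed with 1830 and 83 counts (5.07, 4.75 to 5.40, and 4.12 without Tnmd-/- cell 9 or 10.08 without WT cell 5, against 2 WT counts). Fkbp10, Ddr1 and Crtap were each seen in 3 cells or fewer. The partners of collagen in the basement membrane are laminins, nidogens, perlecan and agrin. Of 15 such genes 6 had at least 20 counts, of which 0 were higher and 2 (33.3%), Lama2 and Lamc3, lower, the latter against 34.9% of all genes. All 1090 WT counts of Lama2 lay in WT cell 5 and all 294 of Lamc3 in WT cell 4. Without WT cell 5 the ratio of Lama2 was at least 2.74. The only one of the 6 over 50 CPM, the laminin chain Lamb2, was at 105 CPM for Tnmd-/- and 129 CPM for WT (ratio -0.30, -0.35 to -0.24). Its ratio was 0.57 without WT cell 2.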

How the data were processed

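Single ScxGFP+ cells, 6 Tnmd-/- and 6 WT, were sequenced after Smart-Seq2 amplification. The authors deposited raw counts for each gene in each cell, neither normalized nor pooled, and made them by removing reads that did not map to mouse alone, aligning the rest with STAR 2.5.1b to GRCm38 (Ensembl 96) and counting reads unique to exons with featureCounts of Subread 2.0.0. The strand setting is not given in the sources used here, and no named chain shares over 6.07% of its exon bases with another gene. Depth was 892713 to 13613080 counts per cell, so that 3 counts, the floor used for bounds, equal 3.36 to 0.220 CPM. No doublet caller was run on hand-picked cells.

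Sample labels gave the genotype, and an annotation bar over a heat map in the study gave the degradation level. For a genotype the counts of its 6 cells were added, divided by the summed total and multiplied by 1000000. Intervals are exact Poisson or Clopper-Pearson intervals at 95%. Only counting error is covered, since amplified reads, which carry no molecular identifiers here, do not count molecules. For counts past 2-fold, 1 CPM was added and at least 20 counts over all cells were required. No test between genotypes was made, with 1 sample each, and the study's own fits were not rerun. Given in full are chains with at least 100 CPM in either genotype and the leading chain of each smaller class. Other chains with 10 counts in a cell are named with their cells, as are at most 3 genes in each direction of the collagen synthesis list that reach 50 CPM. Col1a1, Col3a1, Col4a2, Col4a4, Col5a1, Col5a3, Col14a1, Col15a1 and Col16a1 received more room after their values were seen. The members, gene lists and alternatives were chosen with earlier results of these data known. Positions and exon overlaps are from GENCODE M21 and promoters from RefSeq (GRCm38.p6). Alternatives were equal cell weights, TMM of edgeR 4.0.16, size factors of DESeq2 1.42.0, totals without mitochondrial or collagen genes, each degradation level, each cell left out, 5 CPM added, minima of 100 counts and 1 count, thinning to 892713 counts and coding transcript lengths, and, added after seeing the data, equal weights for class shares and levels per kilobase. Scripts ran in Python 3.11.15 and R 4.3.3 and were tested on simulated counts. The planned description of Gly-X-Y repeats in the proteins was not run. The level of 1 marker list is not reported here.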

Additional observations from a re-analysis of the deposited data

Results flagged for a closer look

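In 12 of the 36 groups of 6 cells considered, a single cell stood apart from the other 5, the gap to its nearest neighbour being most of the range on the log2(CPM + 1) scale. Groups at 0 in all 6 cells are among the 36 but could not be judged. They were the WT cells for the short-chain class, Col8a1 and Col23a1, and the Tnmd-/- cells for Col28a1 and its class. For normally spread values chance does so in about 1 of 20 groups, a rate that cannot be applied to single cells with many values at 0, and the groups share cells and genes, so the number is a description. WT cell 2 was lowest among the WT cells for all collagen chains (gap 0.783 of the range), fibrillar chains (0.856), beaded-filament chains (0.717) and Col6a2 (0.729). Tnmd-/- cell 7 was highest among the Tnmd-/- cells for basement membrane chains (0.682), for transmembrane chains (0.983) and for Col23a1 (1, as all others were at 0). Tnmd-/- cell 20 was highest for the short-chain class and its chain Col8a1 (0.977 for both). WT cell 5 was highest for transmembrane chains (1, from the 15 counts of Col25a1), and WT cell 14 for the class of Col28a1 and for Col28a1 itself (1 for both). Their causes were not tested.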

How the results depend on the processing

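The pooled collagen ratio of -0.004 was 0.51 with equal weight for each cell, -0.19 with TMM, -0.28 with DESeq2 size factors, 0.035 without mitochondrial genes in the totals, -0.22 in the less and 0.65 in the more degraded cells, and -0.26 (without Tnmd-/- cell 9) to 0.34 (without WT cell 4) with each cell left out. TMM and DESeq2 factors rescale the summed totals and so shift all pooled ratios without added CPM alike. With 1 CPM added, the median ratio of all genes moved from 0.06 to -0.07 and -0.13. Chains higher past 2-fold numbered 7 instead of 4 with equal weights and 3 to 4 with a cell left out. Chains lower past 2-fold numbered 5 instead of 9 in the more degraded cells and 8 to 11 with a cell left out. The median number of chains in a Tnmd-/- cell was 9.5 instead of 6 with 1 count sufficing. Of the ratios past 2-fold, those that reversed were Col3a1 (0.035 with equal weights, 0.85 in the more degraded cells, and -4.61 to 0.50 with a cell left out, the latter without WT cell 4), Col5a3 (at least 7.35 in the more degraded cells) and the transmembrane sum (-3.43 in the less degraded cells, and -3.26 to 6.19 with a cell left out, the former without Tnmd-/- cell 7). Ratios within 2-fold that changed sign under an alternative were those of Col1a1, Col1a2, Col12a1, Col6a1, Col6a2 and the fibrillar and fibril-associated sums. The cause was not tested. The ratios of Col6a3, Col5a2, Col4a1, Col15a1 and the beaded-filament and basement membrane sums kept their sign in all 19 alternatives. That of Col16a1 also kept its sign wherever a ratio could be formed. For the 9 chains seen in a single cell, the short-chain sum and the sum of the class of Col28a1, the sign could not change. Nearly all of their counts lay in 1 cell, and without that cell no ratio could be formed. Median partner ratios with a cell left out were 0.518 to 0.905 for Col1a1 over Col1a2, 3.38 to 4.58 for Col6a1 over Col6a2 and 0.615 to 0.670 for Col6a3 over Col6a1.

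No paired analysis was possible because the cell numbers only name picked cells and the results come from no test. With 12 cells, 1 sample per genotype and 892713 counts in the shallowest cell, a chain at 0 in a cell was below 0.220 to 3.36 CPM there, which does not show its absence.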
